A study of Vitis vinifera with 219 samples.

Results

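The data described here are the transcript levels of Cabernet Sauvignon berries of 2014 at 2 samplings before the berries gained sugar, labelled day -14 and day -7 relative to veraison, the start of colouring and softening. The sampling labels chose them: 3 libraries at each day, which are 2 of the 73 groups of 3 libraries that cover Cabernet Sauvignon and Pinot noir in 2012, 2013 and 2014. All 6 came from vines of 1 clone (FPS 8) on a 5C rootstock near Modesto, with unthinned clusters, and each sample was ground from 60 berries of 6 clusters with the seeds taken out during grinding. Labelled sugar was 0.39, 0.44 and 0.47 g/100 ml at day -14 and 0.52, 0.73 and 0.44 g/100 ml at day -7, and the groups overlapped. By day 0 sugar was 2.28 g/100 ml or more in replicates 1 and 2 and 1.71 in replicate 3. The main groups set beside these are Cabernet Sauvignon of 2013 at days -20, -13 and -6 and of 2012 at days -28 and -18. Cabernet Sauvignon of 2012 at day -9, of 2013 at day -26 and of 2014 at days 0 and 8 is also used. A second cultivar, Pinot noir, enters with 2013 at days -20 and -14 and 2014 at days -14 and -6. Each of these groups has 3 libraries. A question the series title raises is in which order transcripts change as ripening begins.

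A grape berry grows in 2 phases of expansion with a pause between them, and ripening starts at the end of that pause. Softening, through loosening of the cell wall by expansins, xyloglucan endotransglucosylase/hydrolases and pectin-cutting enzymes, is known to come early, followed by sugar import, rising abscisic acid and, in red cultivars, anthocyanin colour. Green berries make proanthocyanidins (tannins) by a branch of the same flavonoid pathway that later makes anthocyanins.

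The 6 libraries held 21788 to 22311 genes above 0, and their RPKM values, read counts scaled for transcript length and library depth, summed to between 807469 and 885578. The total of reads is not in the values, but the ratio of the lowest values between libraries put their depths at 0.662 to 1.18 of that of day -14 replicate 1. All 6 lacked the transcripts that mark Pinot noir (0 of 4 at 5 RPKM or more) and held 1 or 2 of the 2 that mark Cabernet Sauvignon. The vacuolar invertase GIN1 (VIT_16s0022g00670), abundant in green berry flesh, marks the labelled pericarp and lay between 1300 and 1652 RPKM in all 6, while the second invertase GIN2 (VIT_02s0154g00110) was at 1.06 to 1.51 RPKM. Of the skin markers, the flavonol regulator MYBF1 (VIT_07s0005g01210) was at 6.22 to 8.59 RPKM and the flavonol synthase FLS1 (VIT_18s0001g03470) at 0.0791 to 2.01. Libraries of the same day correlated at 0.983 to 0.989 and libraries of different days at 0.964 to 0.982 (Pearson's r of log2(RPKM + 1), across genes).

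A pair of features set libraries apart. The first is a set of 50 genes, chosen after the data were seen and in a library outside the 6: they reached 10 RPKM in replicate 2 of Pinot noir 2013 at day -20, at least 10 times the other 2 libraries there, with a median under 1 RPKM over the 213 libraries outside the 6. Their summed level was 17.2, 47.1 and 3077 RPKM at day -14 and 13750, 12720 and 29690 RPKM at day -7, up to 3.46% of a library's RPKM. All 3 day -7 libraries were high, day -14 replicate 3 was between, and the groups did not overlap. Over all libraries of the series the median sum was 42.1 RPKM, and 14 libraries reached 1000, 4 of them among the 6. Elsewhere it was high in 1 or 2 libraries of a group and not in the rest, as in Cabernet Sauvignon 2013 replicate 1 of day -26 (6801 RPKM) and replicate 2 of day -20 (1576 RPKM). Its genes have no names in the sources used here. How much seed or other tissue each powder held was not tested.

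**Figure D1:**
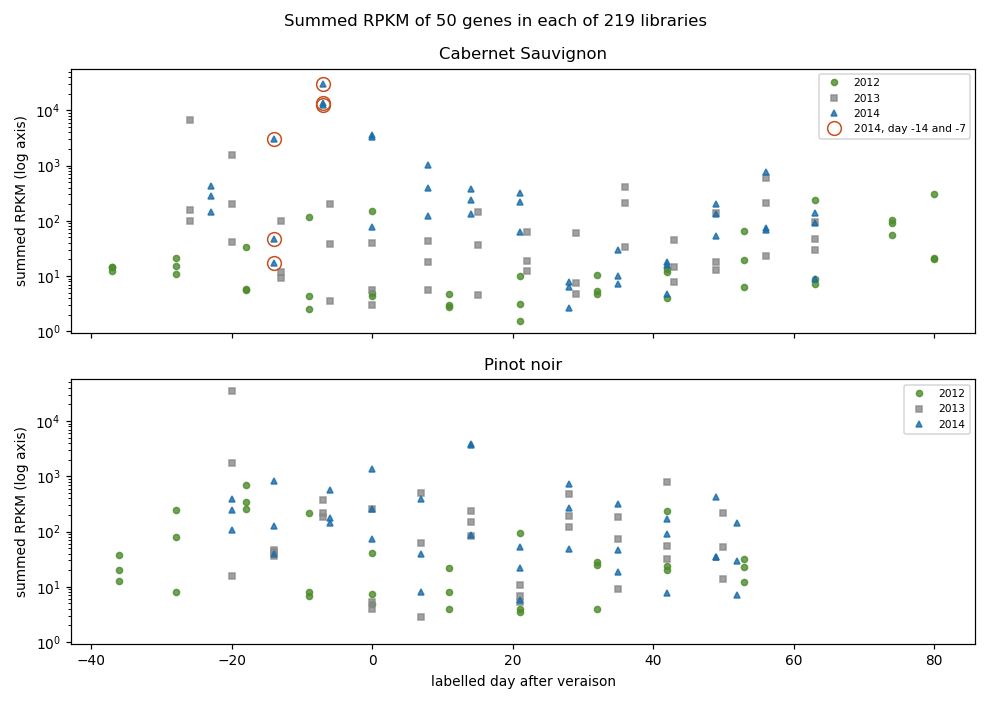
Summed RPKM (log axis) of the 50 genes chosen in Pinot noir 2013 day -20 replicate 2, by labelled day, 1 point per library; rings mark the 6 libraries of Cabernet Sauvignon 2014 at day -14 and day -7. The 3 day -7 libraries lie at 12720 RPKM or more, against a median of 42.1 over all libraries.

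The second feature is that day -7 replicate 2, the library with the highest labelled sugar (0.73 g/100 ml), had the highest values in 3 softening genes described below. These are the cell wall genes called between day -14 and day -7. The expansin and the pectate lyase lost their calls without that library. Their high values in it were thus partly built into the choice and cannot show that it stands apart. Another measure used the 633 genes that rose in Cabernet Sauvignon 2013 between day -13 and day -6. Over them the median log2 difference of day -7 replicate 2 from the day -14 mean was 0.24, against 0.06 in each of replicates 1 and 3. At day 0 the same median was 1.03 to 1.25. Over the 1283 genes that fell in 2013, the median was -0.01, -0.07 and -0.23 in day -7 replicates 1 to 3, so there replicate 3 lay furthest from day -14 and replicate 2 did not stand apart.

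Between day -14 and day -7, 327 of 21425 genes tested were called (1.53%), at a Benjamini-Hochberg adjusted p under 0.05 in limma and a log2 change of at least 1. Of these, 283 rose (1.32%) and 44 fell (0.205%), so 86.5% of the called genes were higher at day -7, while the median change of all tested genes was -0.01. The groups did not overlap in 252 of the 283 genes that rose and 41 of the 44 that fell, against 26.7% of all tested genes. The rises were the larger changes, with a median log2 change of 1.78 and a largest of 8.66, and 119 of these genes averaged under 1 RPKM at day -14. The falls had a median of -1.24 and a largest of -2.25. In whole tissue, fewer cells of a type and less RNA per cell cannot be told apart.

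Of the 50 genes of the set, 40 rose (80%) and 0 fell, and they made up 14.1% of the 283. The 243 other genes that rose had a median level, as log2(RPKM + 1), of 0.51, 0.71 and 1.84 in day -14 replicates 1 to 3 and 2.69, 2.72 and 3.53 at day -7, so day -14 replicate 3 was again the highest of its group and day -7 replicate 3 of its own. At day 0 the same median was 1.05, 2.22 and 2.91, lowest in replicate 1, where the set's sum was also lowest. With the log2 sum of the set as a covariate, an alternative chosen after seeing the data, 158 genes rose and 49 fell, among them 155 of the 283 and 39 of the 44. Fitted on the 6 libraries alone, without the spread of the other groups, 37 genes rose and 21 fell. Of the 15 genes of the lists called below, 13 lost the call in that fit, and CHS3 (adjusted p = 0.0493) and NAC13 (adjusted p = 0.0494) kept it.

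**Figure D2:**
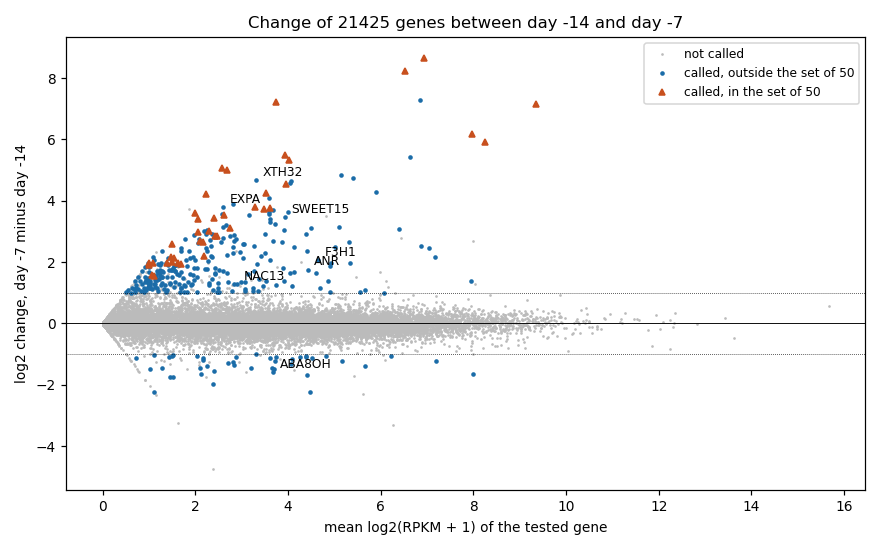
Log2 change from day -14 to day -7 of 21425 genes against their mean log2(RPKM + 1) over the 6 libraries; dotted lines mark a change of 1 either way. Called genes lie mostly above 0 (283 higher, 44 lower), and the 40 called genes of the set of 50 (triangles) include the largest rises.

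Cell wall loosening genes rose in part. Of 9 members tested, 3 rose, 0 fell and 6 did not pass, with a list median of 0.34. XTH32 (VIT_06s0061g00550), an enzyme that cuts and rejoins xyloglucan, was at 0.386, 1.02 and 1.72 RPKM at day -14 and at 9.43, 586 and 19.6 RPKM at day -7. All 3 day -7 libraries lay above all 3 of day -14, and replicate 2 stood far above the others. XTH32 rose by 4.67 on the log2 scale (SE 0.80, adjusted p = 4.44e-06), and by 2.90 without day -7 replicate 2 (adjusted p = 0.022).

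The expansin VIT_13s0067g02930, of a family that loosens walls without cutting them, followed XTH32: 0.633, 0.282 and 1.09 RPKM, then 2.88, 307 and 8.75 RPKM (log2 change 3.79, SE 0.70, adjusted p = 2.24e-05). Without day -7 replicate 2 its change was 1.91 and no longer passed (adjusted p = 0.118). The pectate lyase PL (VIT_05s0051g00590), which cuts the pectin backbone, was at 12.7, 10.3 and 15.8 RPKM and then at 26.8, 129 and 21.5 RPKM. Its change was 1.66 (SE 0.54, adjusted p = 0.0419), and leaving out any 1 of the day -14 libraries or day -7 replicate 2 ended the call, with 0.86 in the latter case (adjusted p = 0.581). With the covariate of the set it was 1.75 and did not pass (adjusted p = 0.0584), and the call was lost in 10 of 18 alternatives in all. In all 3 genes replicates 1 and 3 of day -7 lay above the highest day -14 library, and the library with the most sugar lay far above both.

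**Figure D3:**
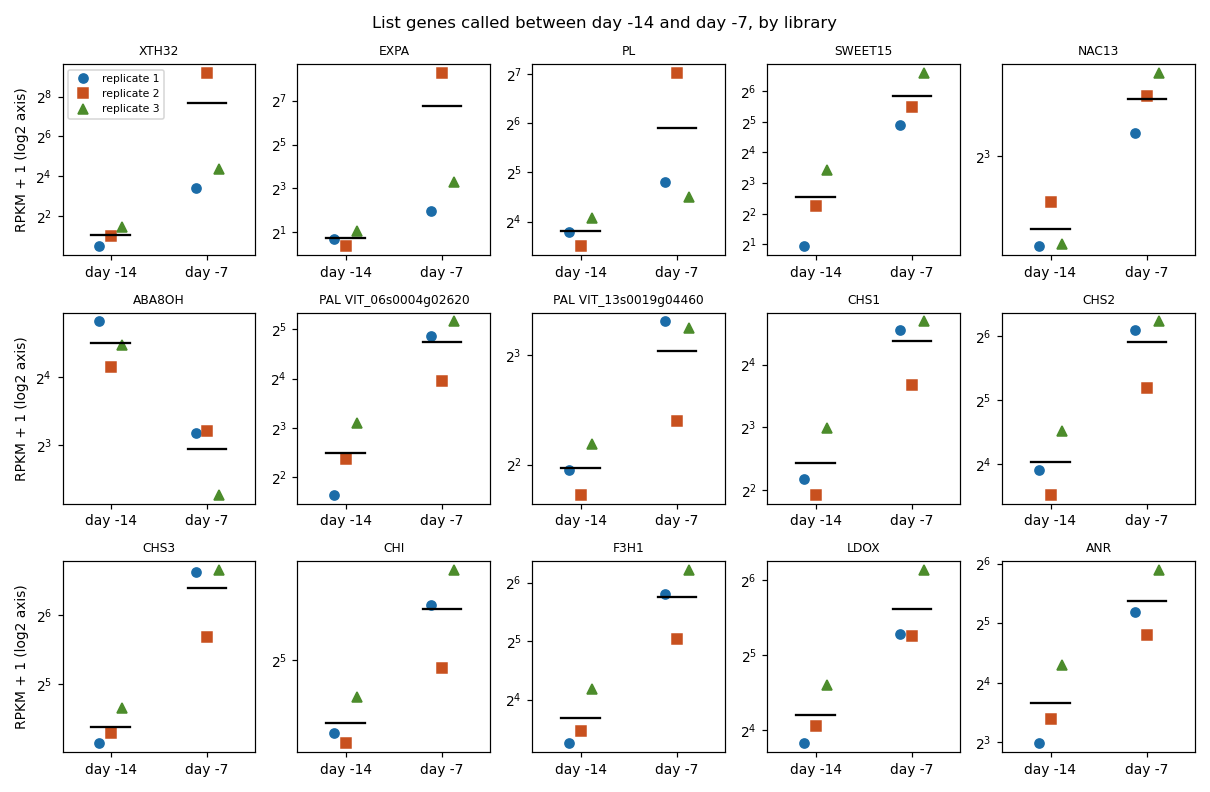
RPKM + 1 (log2 axis) of the 15 list genes called between day -14 and day -7; points are libraries, marked by replicate number, and bars are group means of 3. In XTH32, EXPA (VIT_13s0067g02930) and PL day -7 replicate 2 is the highest, whereas in the flavonoid and PAL genes it is the lowest of its group or level with replicate 1.

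The 3 wall genes kept rising. At day 0 XTH32 was at 2923 to 4129 RPKM, the expansin at 1294 to 1656 RPKM and PL at 477 to 570 RPKM, log2 changes of 6.19, 6.02 and 3.62 from day -7. These later changes share the day -7 libraries with the earlier ones and are given side by side only.

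Sugar transport and cleavage changed in 1 of 13 members. SWEET15 (VIT_01s0146g00260), of a family of carriers that let sugar out of cells, was at 0.920, 3.75 and 9.73 RPKM at day -14 and 28.6, 44.1 and 95.6 RPKM at day -7. The groups did not overlap, and replicate 3 was the highest at both days. It rose by 3.46 (SE 0.47, adjusted p = 8.27e-09), and by 2.73 with the covariate of the set of 50 genes. Within Pinot noir 2013 at day -20, where the sum of the set differed between libraries, SWEET15 was at 33.7, 129 and 19.0 RPKM, and in Cabernet Sauvignon 2013 at day -26 at 57.2, 2.05 and 4.01 RPKM, highest each time in the library where the set was highest. Whether the set's source carried part of the rise was not tested. SWEET15 stayed at 38.6, 60.1 and 123 RPKM at day 0, when the set's sum was 76.5, 3508 and 3341 RPKM, and reached 200 to 376 RPKM at day 8. The other 12 members, among them hexose and sucrose transporters and GIN1, were not called.

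NAC factors are transcription factors, and those of the list have been linked to the passage from green to ripening berries. NAC13 (VIT_02s0012g01040) was the 1 of 5 that rose. It was at 3.32, 4.85 and 3.38 RPKM at day -14 and 8.39, 11.0 and 13.1 RPKM at day -7, with no overlap and no library far from its group. Its log2 change was 1.28 (SE 0.21, adjusted p = 2.02e-06), 1.18 with the covariate of the set and 0.83, short of the threshold, when 5 was added to each value in place of 1. The other 4 did not pass: NAC60 (VIT_08s0007g07670) changed by 0.46, NAC26 (VIT_01s0026g02710) by 0.45, NAC11 (VIT_14s0108g01070) by 0.34 and NAC33 (VIT_19s0027g00230) by 0.19. NAC26 ran from 17.2 to 26.5 RPKM at day -14 and from 14.9 to 48.6 at day -7, so its groups overlapped. From day -7 to day 0 NAC13 changed by a further 2.10, to 37.8, 50.4 and 61.5 RPKM.

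Of 3 further factors linked to the onset of ripening, none was called. WRKY19 (VIT_07s0005g01710) was at 29.3, 36.6 and 31.9 RPKM and then at 43.8, 51.7 and 40.4 RPKM, a change of 0.46 (SE 0.12) that passed the adjusted p (0.0057) but not the size threshold (6.39% of all genes passed the p alone). bHLH75 (VIT_17s0000g00430) was at 75.4, 92.9 and 96.5 RPKM and then at 108, 223 and 118 RPKM (0.68, SE 0.25, adjusted p = 0.0864), again with replicate 2 highest at day -7. ERF045 (VIT_04s0008g06000) changed by -0.40 (SE 0.33) with overlapping groups. Each of the 3 was called between day -7 and day 0 (7.09% of all genes), at 1.25, 2.16 and 2.77.

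Abscisic acid is the hormone most tied to the start of ripening in grape. Of 9 genes of its metabolism and of carotenoid supply, 1 fell and 0 rose. That gene, VIT_02s0087g00710, encodes an abscisic acid 8'-hydroxylase, the enzyme that inactivates the hormone. It was at 27.1, 16.7 and 21.2 RPKM at day -14 and at 8.10, 8.28 and 3.84 RPKM at day -7, so the highest day -7 library had less than the lowest of day -14. It changed by -1.58 (SE 0.29, adjusted p = 1.98e-05), and by -1.55 with the covariate of the set. The second hydroxylase, VIT_18s0001g10500, went from 3.18, 1.97 and 3.30 RPKM to 1.51, 0.779 and 0.823 RPKM. Its change of -0.91 (SE 0.16, adjusted p = 1.45e-05) passed the p but not the size threshold.

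On the supply side, the 9-cis-epoxycarotenoid dioxygenases (NCED), which make the precursor of abscisic acid, did not pass. VIT_19s0093g00550 was at 23.5 to 52.2 RPKM at day -14 and 22.9 to 54.3 at day -7 (change -0.05), VIT_10s0003g03750 changed by -0.32 and VIT_05s0051g00670, under 1 RPKM throughout, by 0.16. The phytoene synthases PSY1 (VIT_04s0079g00680) and PSY2 (VIT_12s0028g00960), at the entry of carotenoid synthesis, changed by -0.06 and -0.31. The carotenoid cleavage dioxygenases CCD4a (VIT_02s0087g00910) and CCD4b (VIT_02s0087g00930) changed by 0.95 (adjusted p = 0.0311) and 0.98 (adjusted p = 0.00185), both just under the size threshold. CCD4b was at 0.385 to 0.851 RPKM and then at 2.00 to 2.32, with no overlap.

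At the entry of the phenylpropanoid pathway 2 of 14 genes rose and 0 fell, with a list median of 0.01. Phenylalanine ammonia-lyase (PAL) opens the phenylpropanoid pathway, and the pair that rose were among its 13 copies; 10 of the 14 members lay under 1 RPKM in all 6 libraries. VIT_06s0004g02620 was at 2.11, 4.15 and 7.50 RPKM at day -14 and 28.2, 14.4 and 34.7 RPKM at day -7 (log2 change 2.29, SE 0.41, adjusted p = 9.58e-06). VIT_13s0019g04460 changed by 1.03 (SE 0.31, adjusted p = 0.0229), and lost the call without any of day -14 replicates 1 and 2 or day -7 replicates 1 and 3, at 0.87 to 1.03. Copies of PAL are alike in sequence, so reads may have been shared among them.

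The flavonoid core held 11 genes, of which 6 rose and 0 fell, and its median log2 change was 1.03 against -0.01 over all tested genes. Chalcone synthase makes the first flavonoid, and its 3 copies rose: CHS1 (VIT_14s0068g00930) by 1.94 (SE 0.32), CHS2 (VIT_14s0068g00920) by 1.86 (SE 0.36) and CHS3 (VIT_05s0136g00260) by 1.96 (SE 0.44; adjusted p = 0.000854, the highest of the 3). CHS3 was at 16.6, 18.6 and 24.3 RPKM and then at 98.2, 50.5 and 99.9 RPKM. Replicate 2 was the lowest of the day -7 libraries in all 3 copies, the reverse of the softening genes. CHS1 and CHS2 are neighbours of near-identical sequence and may share reads.

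Next in the pathway, CHI (VIT_13s0067g03820), which closes the ring of the chalcone, rose by 1.03 (SE 0.29, adjusted p = 0.0144), a call that was lost without 4 of the 6 libraries, taken 1 at a time, at 0.82 to 0.99. The flavanone 3-hydroxylase F3H1 (VIT_04s0023g03370) was at 8.50, 9.98 and 17.1 RPKM and then at 54.6, 31.8 and 73.2 RPKM, a rise of 2.05 (SE 0.31, adjusted p = 1.74e-07). Its second copy, F3H2 (VIT_18s0001g14310), changed by 0.53 (adjusted p = 0.0767) from a higher level, 60.7 to 81.8 RPKM. LDOX (VIT_02s0025g04720), which makes the anthocyanidins that both branches use, was at 13.2, 15.7 and 23.3 RPKM and then at 38.0, 37.2 and 69.2 RPKM, a rise of 1.39 (SE 0.26, adjusted p = 2.34e-05). F3'H (VIT_17s0000g07200), which adds a hydroxyl group to the B ring, changed by 0.89 (SE 0.13, adjusted p = 1.71e-07), and the dihydroflavonol reductase DFR (VIT_18s0001g12800) by 0.71 (adjusted p = 0.00132), both under the size threshold. FLS1 and MYBF1, of the flavonol branch, changed by -0.32 and 0.27 and did not pass.

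In the proanthocyanidin list 1 of 8 genes rose. ANR (VIT_00s0361g00040), anthocyanidin reductase, turns anthocyanidins into the tannin unit epicatechin. It was at 6.90, 9.48 and 18.6 RPKM at day -14 and at 35.6, 26.9 and 58.4 RPKM at day -7, a rise of 1.74 (SE 0.35, adjusted p = 0.000133). LAR2 (VIT_17s0000g04150), a leucoanthocyanidin reductase of the catechin branch, was at 9.94, 6.48 and 8.01 RPKM and then at 22.0, 10.3 and 17.5 RPKM. Its change of 0.90 did not pass (SE 0.39, adjusted p = 0.172), nor did that of LAR1 (VIT_01s0011g02960), at 0.24. The tannin regulators MYBPA1 (VIT_15s0046g00170), MYBPA2 (VIT_11s0016g01310), MYBPAR (VIT_11s0016g01300), MYB5a (VIT_08s0007g07230) and MYB5b (VIT_06s0004g00570) changed by -0.21 to 0.28, and none passed. At day 0 ANR was back at 3.36, 8.64 and 9.21 RPKM.

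In Cabernet Sauvignon 2013 at days -26 and -20 and Pinot noir 2013 at day -20, the set's sum passed 1000 RPKM in places. There ANR, CHS1 and PAL VIT_06s0004g02620 were highest in the library with the highest sum, by differing margins. This did not hold in Cabernet Sauvignon 2013 at day -13, where the sum was 97.7, 9.35 and 11.7 RPKM and all were lowest in replicate 1. Nor did it hold at day -6, where the sum was 3.55, 38.7 and 198 RPKM and all were highest in replicate 2. In Cabernet Sauvignon 2013 at day -26 that sum was 6801, 101 and 154 RPKM. ANR was at 45.9, 26.3 and 28.2 RPKM there and the PAL gene at 20.3, 12.0 and 12.8 RPKM. CHS1 and CHI differed little, at 16.0, 12.9 and 13.8 RPKM and at 44.8, 40.3 and 37.5 RPKM. In Cabernet Sauvignon 2013 at day -20 the sum of the set was 41.6, 1576 and 205 RPKM, and ANR was at 10.5, 30.6 and 13.0 RPKM, CHS1 at 5.83, 16.2 and 7.37 RPKM and PAL VIT_06s0004g02620 at 3.52, 12.8 and 4.03 RPKM. In Pinot noir 2013 at day -20 ANR was at 65.7 and 87.6 RPKM in the pair of libraries where the sum reached 1759 and 34480 RPKM, and at 11.8 in the third. With the log2 sum as a covariate in limma, 5 of the 6 flavonoid core genes were still called, at 1.26 to 1.64. CHI (0.73, adjusted p = 0.18), PAL VIT_13s0019g04460 (0.72, adjusted p = 0.231) and ANR (1.02, adjusted p = 0.0517) did not pass. The covariate has the same slope over all libraries, and in 141 of them the sum was under 100 RPKM. Whether that slope holds at the sums of day -7, 12720 RPKM or more, was not tested. NAC13 was at 3.18, 3.71 and 3.64 RPKM in Cabernet Sauvignon 2013 at day -20 and at 2.57, 4.27 and 2.11 RPKM in Pinot noir 2013 at day -20, highest each time in the library with the highest sum of the set. The called hydroxylase was at 9.96, 7.71 and 7.92 RPKM and at 10.2, 5.39 and 4.09 RPKM in the same groups, highest each time in replicate 1. In Cabernet Sauvignon 2013 at day -26 replicate 1 was the library with the highest sum. There the hydroxylase was at 6.87, 3.70 and 5.82 RPKM and NAC13 at 2.87, 2.60 and 1.51 RPKM, both highest in replicate 1.

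None of the 10 genes of the late anthocyanin steps was called. The colour regulators MYBA1 (VIT_02s0033g00410), MYBA2 (VIT_02s0033g00390) and MYBA3 (VIT_02s0033g00450), and the glucosyltransferase UFGT (VIT_16s0039g02230) that completes anthocyanins, stayed at or under 0.282 RPKM in every library. GST4 (VIT_04s0079g00690), a glutathione S-transferase of pigment transport, was listed at 0 in all 3 day -14 libraries and at 0.364, 0 and 1.02 RPKM at day -7. The methyltransferase AOMT (VIT_01s0010g03510) was at 2.39 to 2.85 and then 1.67 to 1.82 RPKM (change -0.37), and the acyltransferase 3AT (VIT_03s0017g00870) changed by -0.28. The vacuolar transporter anthoMATE1 (VIT_16s0050g00930) was the most abundant, at 27.9 to 35.4 RPKM and then 36.0 to 42.9 RPKM (0.34, adjusted p = 0.0965), and its neighbours anthoMATE2 (VIT_16s0050g00900) and anthoMATE3 (VIT_16s0050g00910) changed by -0.27 and 0.21. From day -7 to day 0 GST4 changed by 5.84, MYBA2 by 4.06 and MYBA1 by 3.25, and MYBA2 stood at 14.3, 33.0 and 13.3 RPKM. MYBA1 and MYBA2 are close copies and may share reads.

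No member of the remaining lists was called. Of the 9 co-regulators of flavonoid genes, the repressor-type factor MYB4a (VIT_03s0038g02310) changed most, from 11.5 to 12.0 RPKM up to 16.6 to 20.7 RPKM (0.62, adjusted p = 2.38e-05), short of the size threshold. Of the 9 flavonoid 3',5'-hydroxylases, which lead to blue-purple pigments, VIT_06s0009g02830 changed most (-0.80, adjusted p = 0.126), and 6 were under 1 RPKM in all 6 libraries. The stilbene synthases, which make resveratrol, were close to silent. Of 45, 42 were tested and 42 lay under 1 RPKM in every library, with a highest value of 2.63 RPKM, and their regulators MYB14 (VIT_07s0005g03340) and MYB15 (VIT_05s0049g01020) changed by -0.24 and -0.20.

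Among genes known by ID alone the largest rises were in VIT_00s1290g00010 and VIT_14s0128g00200. The former was at 0.121, 0.205 and 164 RPKM at day -14 and at 1924, 1848 and 4131 RPKM at day -7 (log2 change 8.66, SE 1.42, adjusted p = 1.46e-06), and the latter rose by 8.23 (SE 1.26). Both belong to the set of 50 genes, and both were near 0 in day -14 replicates 1 and 2 and above 100 RPKM in replicate 3. Over the alternatives their changes ran from 4.69 to 11.04 and from 4.73 to 10.49, and neither passed in the fit of the 6 libraries alone. The largest falls under the same rule were in VIT_00s1359g00020, from 51.8, 33.5 and 62.2 RPKM to 13.8, 6.98 and 8.12 RPKM (-2.25, SE 0.50, adjusted p = 0.000669), and in VIT_05s0077g00540 (-1.68, SE 0.33).

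Cabernet Sauvignon 2013 between day -20 and day -13 gives a step of the same cultivar with sugar as flat, at 0.44 and then 0.48 g/100 ml. It held 191 called genes (0.891%), 70 higher (0.327%) and 121 lower (0.565%), and 36.6% of the calls were rises. In that step 10 of the 283 genes that rose in 2014 were also higher and 2 were lower, and 11 of the 44 that fell were also lower (14.3% of the 70 and 9.09% of the 121). The test of the difference between the steps (an interaction term in limma) called 363 genes (1.69%), of which 287 changed more positively in 2014 (1.34%). Without day -7 replicate 3 of 2014 the difference was called for 229 genes. Fitted on the 12 libraries of those groups alone it was called for 193, and with the covariate for 170. In 2013, replicate 1 of day -13 lacked all 9 transcripts that the other 5 of 2013 held and that were at 0 in all 6 of 2014. Without it 326 genes were called.

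The leading cell wall genes rose in both years. In 2013 XTH32 changed by 2.58 and the expansin VIT_13s0067g02930 by 2.60, and their difference from 2014 did not pass (2.09, SE 1.13, adjusted p = 0.415, and 1.19, SE 0.99, adjusted p = 0.699). NAC13 changed by 0.81 in 2013 (difference 0.48, SE 0.30, adjusted p = 0.532). CCD4a changed by 1.30 and bHLH75 by 1.66 in 2013, both called there.

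Genes of the flavonoid core and ANR differed between the years. ANR was at 7.30, 7.46 and 7.99 RPKM at day -13 of 2013, a change that was not called, and the 2014 step was more positive by 2.74 (SE 0.50, adjusted p = 2.92e-05). F3H1 changed by -0.61 in 2013, a difference of 2.66 (SE 0.44, adjusted p = 5.42e-06). Of the 11 flavonoid core genes 6 passed the test of the difference, all more positive in 2014: CHS1, CHS2, CHS3, F3H1, F3'H and LDOX. SWEET15 changed by -0.25 in 2013 (difference 3.71, SE 0.67, adjusted p = 3.07e-05) and the hydroxylase VIT_02s0087g00710 by 0.39 (difference -1.98, SE 0.41, adjusted p = 0.000449). Leaving out the 2013 library with a high sum of the set (day -20 replicate 2) changed the ANR difference to 2.31 (adjusted p = 0.00217) and that of CHS3 to 2.16, which no longer passed (adjusted p = 0.0546). With the covariate the ANR difference was 1.68 (adjusted p = 0.0318), and those of CHS2, CHS3 and PAL VIT_06s0004g02620 no longer passed (adjusted p = 0.158, 0.116 and 0.0519).

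**Figure D4:**
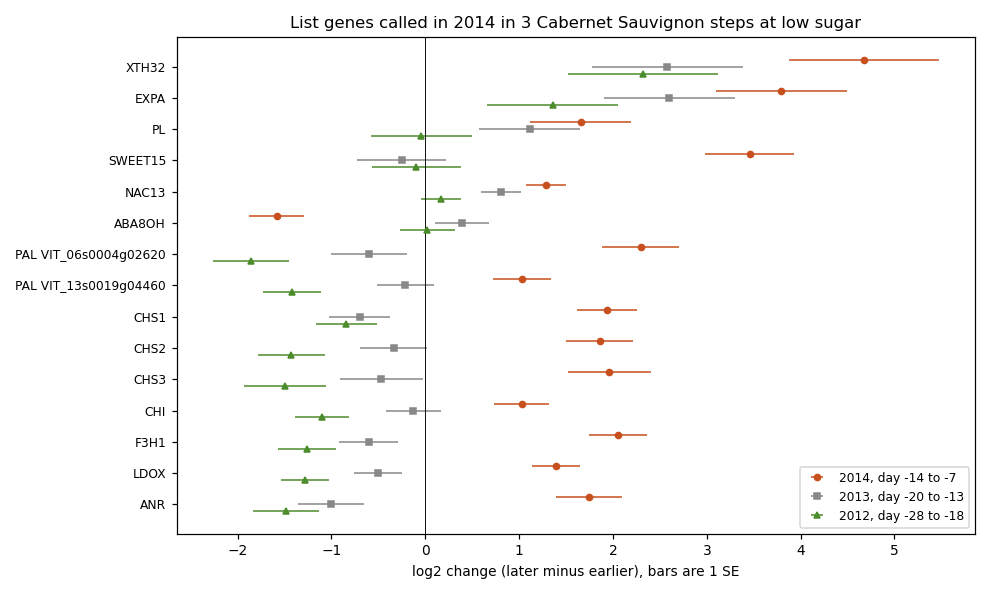
Log2 change (later minus earlier day, bars 1 SE from the shared limma fit) of the 15 called list genes in the 2014 step and in the Cabernet Sauvignon steps of 2013 (day -20 to -13) and 2012 (day -28 to -18). XTH32 and the expansin EXPA lie right of 0 in all 3 steps, while the flavonoid genes and ANR are right of 0 in 2014 and left of it in 2013 and 2012.

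Cabernet Sauvignon 2012 between day -28 and day -18 also had flat sugar (0.513 and then 0.45 g/100 ml) over a longer interval and from an earlier day. It held 1502 called genes (7.01%), 502 higher (2.34%) and 1000 lower (4.67%). Of the 283 genes that rose in 2014, 16 were higher in that step and 24 lower. The difference from the 2014 step was called for 1425 genes (6.65%), 976 of them more positive in 2014 (4.56%). ANR changed by -1.49 and CHS3 by -1.49 in that step, differences of 3.23 and 3.45. The factors NAC26, NAC60, bHLH75 and ERF045 changed by 1.83, 1.73, 2.24 and 1.01 in 2012, all called, and the differences from 2014 were -1.38, -1.27, -1.55 and -1.41. Of the 9 cell wall genes, 4 passed the test of the difference, all more positive in 2014, and they are expansins other than the 1 called in 2014. Of the 13 sugar genes, 1 was more positive in 2014 and 3 more negative. Intervals and starting days differ between these steps.

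At about the same labelled days of 2013, day -13 to day -6, sugar had begun to climb, to 2.00 g/100 ml. Mean sugar at day 0 was 7.84 g/100 ml in 2013 and 2.26 g/100 ml in 2014, so equal labelled days differed in sugar. In that step of 2013, 1916 genes were called (8.94%), 633 higher (2.95%) and 1283 lower (5.99%). The difference from 2014 was called for 2002 genes (9.34%). GST4 rose by 6.04 and MYBA2 by 4.81 in that 2013 step, and the differences from 2014 were -5.55 and -4.58. NAC13 rose in both, by 2.46 in 2013 (difference -1.17), and XTH32 by 7.00, a difference of -2.33 that did not pass. SWEET15 rose by 3.67 in 2013 and 3.46 in 2014 (difference -0.21, SE 0.67, not called), whereas ANR changed by -1.33 in 2013 (difference 3.07). Of the 283 genes that rose in 2014, 49 also rose in the 2013 step and 6 fell there.

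In the later 2014 step from day 0 to day 8, which shares no library with day -14 or day -7, 1794 genes were called (8.37%), with 308 higher (1.44%) and 1486 lower (6.94%). The median of all genes was -0.21 there, and scaling by trimmed means moved it to -0.01, with 578 higher and 790 lower, so directions in this step depend on the scaling. Of the 283 genes that rose between day -14 and day -7, 25 rose and 34 fell in it, and of the 44 that fell, 3 rose and 8 fell. In 3 further steps that share no library with day -14 or day -7, the same 283 genes moved in different proportions. In Cabernet Sauvignon 2012 from day -18 to day -9, 39 rose and 7 fell (2.28% and 2.78% of all genes). In Pinot noir 2014 from day -14 to day -6, 28 rose and 2 fell (1.13% and 1.51%). Day -14 replicate 2 there held 2 of the 2 transcripts that mark Cabernet Sauvignon and 0 of the 4 that mark Pinot noir. In Pinot noir 2013 from day -20 to day -14, 6 rose and 167 fell (0.747% and 2.41%). That step starts from the libraries in which the set of 50 was chosen and was high in replicates 1 and 2. From day 0 to day 8 of Cabernet Sauvignon 2014, CHS3 rose by 1.99, F3H1 by 1.10, LDOX by 1.51 and SWEET15 by 2.14. ANR fell by 1.30 in that step. In the same season F3H1 was at 22.4, 44.9 and 24.4 RPKM at day 0, against 54.6, 31.8 and 73.2 at day -7. CHS1 was at 5.16, 9.18 and 7.61 RPKM at day 0 against 22.5, 11.7 and 24.7 at day -7. CHS1 and F3H1 thus averaged less at day 0 (7.32 and 30.5 RPKM) than at day -7 (19.6 and 53.2 RPKM), whereas CHS3 (117 against 82.9 RPKM) and LDOX (66.2 against 48.1 RPKM) averaged more.

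**Figure D5:**
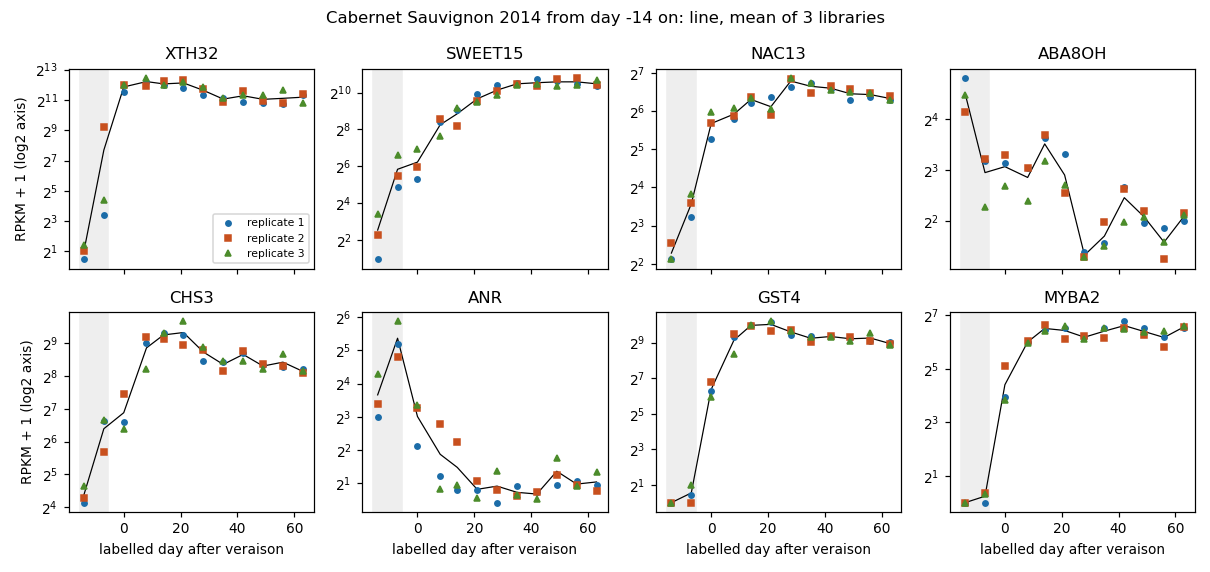
RPKM + 1 (log2 axis) of 8 genes in Cabernet Sauvignon 2014 from day -14 on, points by library and the line through means of 3; grey marks day -14 and day -7. XTH32 and NAC13 climb from the grey interval on, ANR peaks at day -7, ABA8OH (VIT_02s0087g00710) drops within it, and GST4 and MYBA2 stay near 0 until day 0.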

How the data were processed

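RNA was sequenced from non-directional libraries, per the labels' protocols, and the submitters' processing notes name TopHat2 2.0.6 and Cufflinks 2.0.2; the genome build is not given in the sources used here. The authors deposited 1 table of RPKM for 29971 gene IDs for every library, already scaled for depth and length. Reads of a gene and an antisense partner cannot be told apart, and the count of reads is not in the values, so limits from counting cannot be given. Depth in the 6 libraries was compared through the ratio of values under 0.15 RPKM.

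From these, limma 3.58.1 in R 4.3.3 was fitted to log2(RPKM + 1) of all 73 groups (146 residual degrees of freedom), for 21425 genes with at least 1 RPKM in at least 3 libraries, with trend and robust variance. P-values are 2-sided, adjusted by Benjamini-Hochberg over all genes tested, and fold changes understate those of low genes. A call needs an adjusted p under 0.05 and a log2 change of at least 1. Groups follow the labels. The design text names blocks along 3 rows of vines without tying a replicate number to a row. Standard errors and p-values rest on the spread between samples within groups, pooled over all 73 groups. They do not measure the spread of the day -14 and day -7 libraries alone, which can be wider, as in XTH32 at day -7. Deviations from the group means of same-numbered day -14 and day -7 libraries correlated at 0.11, 0.29 and 0.29. The main fit had no term for replicate number. A replicate block, which pairs libraries by that number, was fitted only as an alternative.

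The members and the 13 lists (147 genes) were chosen with earlier results of these data known. Gene symbols come from published use of the IDs; no ID was found in the reference table, in which 40 of the genes matched by symbol, 38 of them on the chromosome of their ID. Genes of 6 lists could all be named; of the others, called members (up to 4) or else the largest change; of genes known by ID alone, the 2 largest rises and falls with a mean of 5 RPKM and no overlap. The fit was tested on simulated data in which genes varied independently. That simulation cannot show how genes that are high together in single libraries affect the calls. Alternatives were other pseudocounts, filters and scalings, the block, each library left out, the compared libraries alone and the treat test. Another left out the libraries carrying markers of the other cultivar. A covariate and a set of libraries left out were both added after seeing the data.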

Additional observations from a re-analysis of the deposited data

Results flagged for a closer look

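Several genes were flagged because their 2014 step differed from a step of another year at flat sugar, by the interaction term in limma. All values here are differences of log2 changes, 2014 minus the other year. Against Cabernet Sauvignon 2013 (day -20 to -13) these were SWEET15 3.71, PAL VIT_06s0004g02620 2.89, ANR 2.74, F3H1 2.66, CHS1 2.64, CHS3 2.43, CHS2 2.20, LDOX 1.90, F3'H 1.31 and, with the opposite sign, the abscisic acid 8'-hydroxylase VIT_02s0087g00710 at -1.98.

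Against Cabernet Sauvignon 2012 (day -28 to -18), the phenylpropanoid and flavonoid genes were flagged at 4.15 (PAL VIT_06s0004g02620), 3.45 (CHS3), 3.32 (F3H1), 3.29 (CHS2), 2.78 (CHS1), 2.68 (LDOX), 2.48 (PAL VIT_08s0040g01710), 2.45 (PAL VIT_13s0019g04460), 2.13 (CHI), 1.63 (MYBF1), 1.22 (C4H) and 1.02 (DFR). The tannin enzymes followed at 3.23 (ANR), 1.54 (LAR2) and 1.13 (LAR1). SWEET15 differed by 3.55, NCED VIT_10s0003g03750 by 1.17, NAC13 by 1.12 and the hydroxylase VIT_02s0087g00710 by -1.61. The expansins VIT_14s0108g01020, VIT_17s0053g00990, VIT_01s0026g02620 and VIT_06s0004g04860 differed by 4.62, 2.86, 2.58 and 1.42. The opposite sign was found for the cell wall invertase cwINV (-2.58), the sugar carriers SWEET10 (-1.59) and HT1 (-1.23), bHLH75 (-1.55), ERF045 (-1.41), NAC26 (-1.38) and NAC60 (-1.27). In 2012 the interval was longer and began earlier, and what the different days contribute was not tested. With 3 libraries a group, no library was tested as an outlier.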

How the results depend on the processing

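Counts of called genes moved by more than 1.5 times under these alternatives. For the step from day -14 to day -7 (327), they were 140 with a pseudocount of 5, 123 with a mean of at least 5 RPKM, 183 with the treat test, 207 with the covariate of the set of 50 genes and 58 with the compared libraries alone. For the difference from 2013 day -20 to -13 (363), in the same order, they were 163, 119, 133, 170 and 193. For the difference from 2012 (1425) they were 596, 657 and 711 with the first 3, and for that from 2013 day -13 to -6 (2002) 1063, 1176 and 1069. From day 0 to day 8 (1794) they were 669 and 1168 with the first 2, and 3462 with a pseudocount of 0.1. The stricter filter tests fewer genes; otherwise the cause was not tested. Leaving out single libraries gave 228 to 372, 229 to 411, 1300 to 1515, 1755 to 2368 and 1459 to 2123 for the 5 comparisons in this order. The replicate block, a pairing by replicate number, gave 326, 366, 1427, 2010 and 1791, and changed no call of a named gene. Quantile normalization moved the share of rises among calls from 79.1% to 68.3% in the difference from 2013 day -20 to -13, from 68.5% to 58% in that from 2012 and from 17.2% to 44% from day 0 to day 8, where trimmed-mean scaling gave 42.3%. Of the 327 genes called, 52 were also called with the 6 libraries alone, and 324 with the block. No named gene called in the main fit changed direction under an alternative. Direction was not compared for genes called in neither fit. The number of reads behind low values is unknown, so levels under 1 RPKM are imprecise.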
